A study of Mus musculus with 5 samples.

Results

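Binding of p300 was profiled by ChIP-seq (chromatin immunoprecipitation followed by sequencing) in the established mouse line MS5, stromal cells of the bone marrow, taken at passage 11. All cells had been stimulated for 5 h with 10 ng/mL of TGF-β1, and 1 of the 2 p300 libraries also came from cells given pioglitazone at 20 ng/mL. These are 2 of the 5 samples of the series, and they were chosen by their antibody and treatment, with earlier results of these data known. No untreated cells, and no cells given pioglitazone without TGF-β1, are in this comparison, so it bears only on p300 in the presence of TGF-β1. Each treatment is 1 library, so no difference could be set against the spread between replicates, and p-values are not given. The deposited lists hold 31466 p300 peaks without pioglitazone and 21994 with it, 53460 of the 83829 peaks in the 4 lists of the series. The remaining peaks are those of c-Jun in the same treatments, 17044 without and 13325 with pioglitazone, again from 1 library each. The label of the cells as bone marrow stroma was not checked against marker genes, because the peaks are in mm9 coordinates and no mm9 annotation was used here.

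p300 is a histone acetyltransferase. It does not read DNA sequence itself, but is brought to enhancers and promoters by transcription factors, where it acetylates histones and other proteins. SMAD proteins, which carry the TGF-β signal to the nucleus, and AP-1, the dimeric factor to which c-Jun belongs, both recruit it. Pioglitazone binds the nuclear receptor PPARγ, a regulator of adipocyte genes that also uses p300 as a coactivator. The question the pair of libraries addresses is where p300 sits in TGF-β1-treated stromal cells when a PPARγ agonist is present.

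A peak is called retained when the 2 p300 lists overlap there by at least 1 bp, lost when it is listed without pioglitazone only, and gained when it is listed with pioglitazone only. Of the 31466 peaks without pioglitazone, 15389 were lost, 48.9%, and of the 21994 with it 5917 were gained, 26.9%. The 16077 retained sites were placed almost identically in both libraries. The median distance between their centres was 38 bp (quartiles 17 and 72 bp), and 13861 of them, 86.2%, lay within 100 bp. The median signed offset of the centres was 0 bp. Each list gives all its peaks 1 width, 247 bp without and 227 bp with pioglitazone.

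The score column is 1 for every peak, so the order of the rows is the only trace of peak strength in the files. The sorting key of the rows is not stated, and row position is used below as a description of that order. At the start of the lists the libraries held almost the same sites. The first 200 peaks without pioglitazone were all found with it, as were 497 of the first 500 and 1949 of the first 2000. In the other direction, 99 of the first 100 peaks with pioglitazone and 1957 of the first 2000 were found without it. The order within these top sites differed more than their membership. Of the first 10 peaks of each list 3 were common to both, of the first 100 there were 72, and of the first 1000 there were 744, which is 74.4% (95% exact interval 71.6 to 77.1). Beyond the first 5000 rows, where the share was 75.2%, it went down to 68.2% at 15000 rows and 64.6% at 21994. Intervals here and below are Clopper-Pearson unless said otherwise, treat peaks as independent and cover counting error only.

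**Figure D1:**
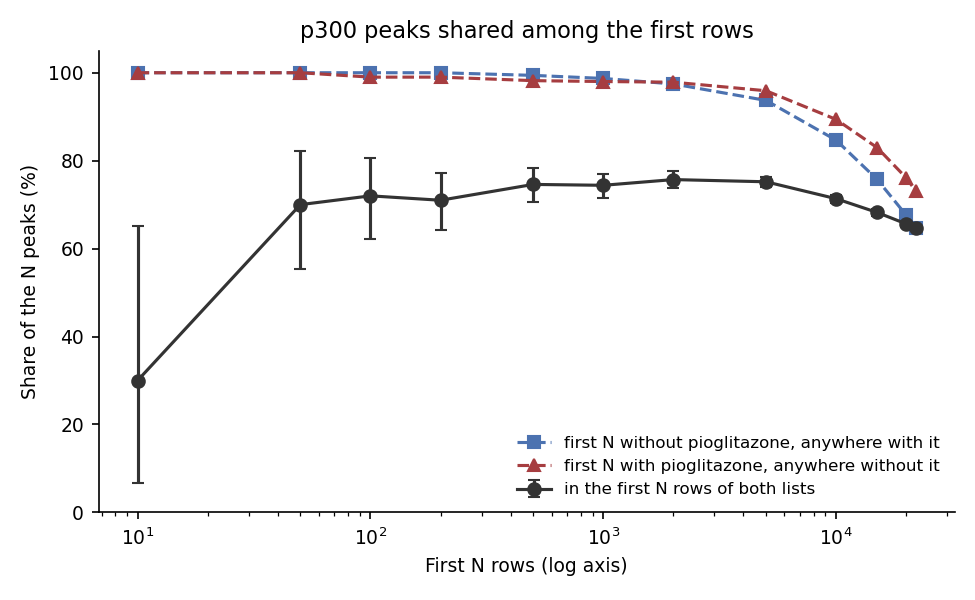
Share of the first N p300 peaks (x axis, log scale) that lay among the first N rows of both lists (black, with 95% exact intervals), or anywhere in the other list (blue, from the list without pioglitazone, and red, from the list with it), 1 library each. From 50 to 5000 rows the black share stays between 70% and 75.7%, while 93.7% or more of the same peaks are found somewhere in the other list.

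The site at row 1 of both lists was on chromosome 6 (113256951 to 113257197 in the list without pioglitazone). It overlapped no c-Jun peak without pioglitazone, but with pioglitazone a c-Jun peak at row 3643 of 13325 was listed on it. The same held at row 2 of both lists, on chromosome 7 (134920606 to 134920852), with c-Jun at row 2723 with pioglitazone only. The reverse was seen at row 3, on chromosome 15 (101198977 to 101199223), where c-Jun stood at row 257 of 17044 without pioglitazone and was not listed with it, and p300 went to row 20. The site at row 6 without pioglitazone, on chromosome 17 (14953084 to 14953330), went to row 16, and that at row 7, on chromosome 12 (16797335 to 16797581), to row 27. Row 8 lay on chromosome 5 (130006877 to 130007123) and became row 7. The peak at row 9 was located on chromosome 8 (124691465 to 124691711) and stood at row 26 with pioglitazone. Row 10, at 168277402 to 168277648 of chromosome 2, became row 19. All 5 carried c-Jun in both treatments. Of the first 10 p300 sites, 8 overlapped c-Jun without and 9 with pioglitazone. Among all 3266 retained sites in the first 10% of either list the shares were 81.9% and 70.2%, so the count without pioglitazone is near that background.

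Many lost peaks had p300 listed close by. Of the 15389 lost peaks, 1512 (9.83%) had the centre of a p300 peak with pioglitazone within 1 kb, 5094 (33.1%) had the nearest one between 1000 and 12500 bp away, and 8783 (57.1%) had none within 12500 bp. The gained peaks lay closer to the other list: 1406 of 5917 (23.8%) were within 1 kb, and 2391 (40.4%) were over 12500 bp away. The median distance was 16435 bp for lost and 7979 bp for gained peaks. The list without pioglitazone is the denser one, with a median of 10991 bp from a peak to its nearest neighbour in the same list, against 14212 bp with pioglitazone, and the part of this in the distances was not tested.

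Distance and row order went together. Of the 120 peaks lost from the first 10% of rows, 52 had a peak of the other list within 1 kb and 9 had none within 12500 bp. Of the 2728 lost from the last 10%, 103 and 2053 did. Among gained peaks the first 10% of rows held 49, of which 40 were within 1 kb and 1 was over 12500 bp away, and the last 10% held 1251, of which 166 and 725 were. Near the top of the lists, therefore, a peak without a partner mostly had a neighbour in the other list within 12500 bp, and near the end it mostly did not.

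**Figure D2:**
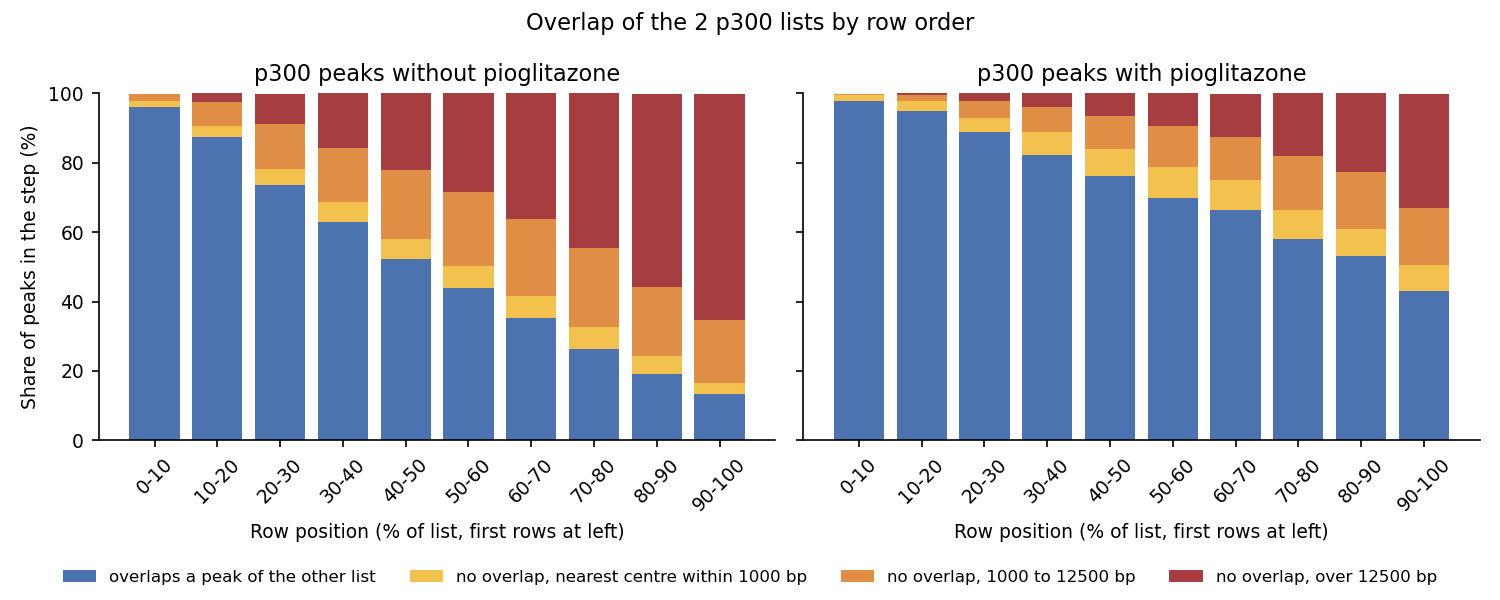
Share of p300 peaks (y axis, percent) in each 10% step of row order (x axis, first rows at left) that overlap a peak of the other list (blue) or do not, split by the distance to the nearest centre of the other list, for the list without (left) and with (right) pioglitazone. Peaks over 12500 bp from the other list (dark red) make up 0.286% of the first step and 65.2% of the last without pioglitazone, and 0.0455% and 33.0% with it.

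Some lost and gained peaks paired off. In 1057 cases a lost and a gained peak were each other's nearest neighbour within 1 kb, at a median of 374 bp between centres. They account for 6.87% of lost and 17.9% of gained peaks. In the first 10% of the list without pioglitazone 40 of the 120 lost peaks paired off in this way, and for 24 pairs both members were in the first 10% of their lists. Row positions of such pairs had a Spearman's rho of 0.53 across pairs, against 0.81 across the 16077 retained sites. Pairs share the same 2 libraries and are not replicates.

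High-ranking peaks that were far from any peak of the other list were few. The first lost peak more than 5 kb from every p300 peak with pioglitazone was at row 835 of 31466, on chromosome 8 (20020268 to 20020514), and no other p300 peak of either list was within 1228422 bp of it. Chromosome 6 held the next, at row 1294 (70676470 to 70676716) and row 1439 (82804332 to 82804578). They were followed by row 1706 on chromosome 19 (5848373 to 5848619) and row 2192 on chromosome 15 (100233808 to 100234054). For these 4 the nearest p300 peak with pioglitazone was 65644, 9242, 44810 and 14390 bp away. None of the 5 overlapped c-Jun in either treatment. Over all 11946 lost peaks more than 5 kb from the other list, 18.7% (18.0 to 19.4) overlapped c-Jun without pioglitazone and 11.3% (10.8 to 11.9) overlapped c-Jun with it. These come from all rows, whereas the 5 named stood in the first 10%. Of retained sites in the first 10% of either list, 81.9% overlapped c-Jun without pioglitazone, and of all 31466 peaks 11828 did.

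The first gained peaks this far from the other list stood at rows 1394, 1726, 1933, 2105 and 2445 of 21994. In that order, their positions were 60773180 to 60773406 of chromosome 18, 115941648 to 115941874 of chromosome 6, 167372551 to 167372777 of chromosome 2, 23988639 to 23988865 of chromosome 16 and 34490533 to 34490759 of chromosome 18. The first 3 lay 5018, 5211 and 5880 bp from a p300 peak without pioglitazone and carried no c-Jun. The site on chromosome 16 was 78528 bp from one. It was also among the highest c-Jun sites of both treatments, at row 106 of 17044 without and row 67 of 13325 with pioglitazone, so that c-Jun was listed there throughout and p300 only with pioglitazone. The second site on chromosome 18, 44364 bp from a p300 peak without pioglitazone, had c-Jun at rows 992 and 2346 of those lists. Over all 3492 gained peaks more than 5 kb from the other list, 11.1% (10.1 to 12.2) overlapped c-Jun without and 8.42% (7.52 to 9.39) with pioglitazone. These too come from all rows. Of all 21994 p300 peaks with pioglitazone, 7401 overlapped c-Jun with it.

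Retained sites also changed places in the order. As a percent of each list, their median position went from 29.7 without to 40.2 with pioglitazone, and the median change at a site was 5.53 (interval from order statistics 5.19 to 5.81, quartiles -1.46 and 18.5). This shift depends on the list lengths, since retained peaks fill 51.1% of 1 list and 73.1% of the other. With the longer list shortened to 21994 rows the median change was -0.67. Retained sites were therefore also ranked among themselves, from 1 to 16077, so that equal numbers of places are won and lost. The median site moved by 9.95% of this ranking in either direction. Ranks in the first 10% without pioglitazone changed least, with quartiles of the change at -0.62 and 3.40. The quartiles were -11.8 and 18.3 between 50% and 60%, and -21.4 and -2.01 in the last 10%. A bounded ranking leaves sites near its ends little room to move outward, and the part of this in the spread was not tested. A move of more than 25% of the ranking was seen at 2671 sites, 16.6%.

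**Figure D3:**
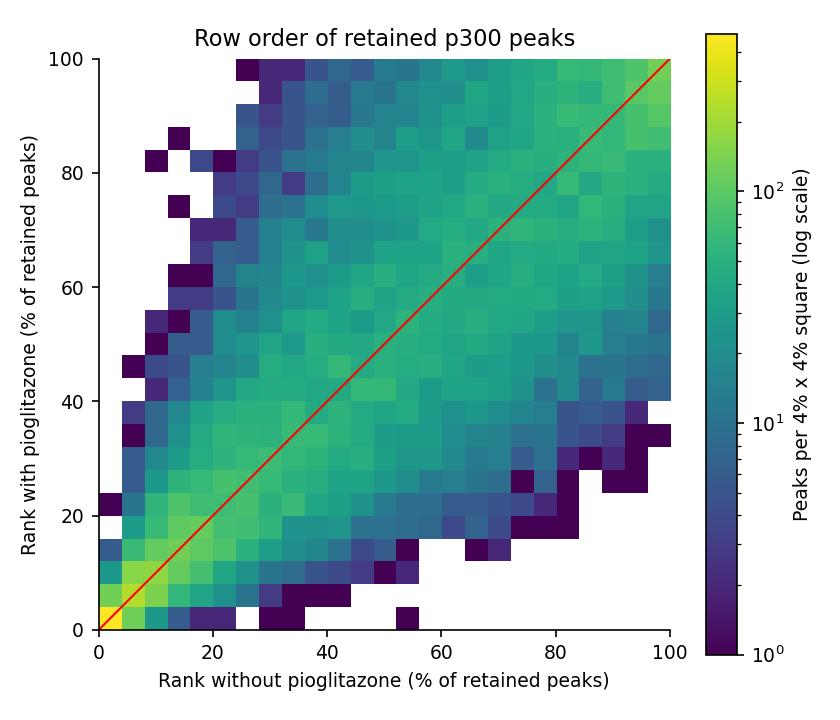
Rank of the 16077 retained p300 peaks among themselves without (x axis) and with (y axis) pioglitazone, as a percent, counted in squares of 4% by 4% on a log colour scale, with the red line marking equal rank and white squares holding no peak. The densest squares lie at the lower left, where the first-ranked sites of both libraries meet. The spread around the line is widest in the middle of the ranking, where a bounded ranking leaves most room in both directions.

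On balance, sites with c-Jun listed without pioglitazone moved back in this ranking, and sites with no c-Jun listed without it moved forward. Of all 16077 retained sites, 7922 stood later with pioglitazone, 49.3%. Among the 8763 that overlapped a c-Jun peak without pioglitazone, 54.5% (53.5 to 55.6) stood later, and among the 7314 that did not, 43.0% (41.8 to 44.1). The difference was 11.5 percentage points (9.99 to 13.1). Because the ranking is closed, a move back in 1 class requires a move forward in the other. Only their difference carries information, and a loss at c-Jun sites and a gain at the other sites cannot be told apart.

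Sites with c-Jun ranked higher to begin with, so the classes were also compared at like rank. Within 10% steps of the mean rank in the 2 lists, the difference was 12.49 points (10.8 to 14.1, Mantel-Haenszel), and it had the same direction in each of the 10 steps. In the first step 54.3% of 1274 sites with c-Jun and 36.4% of 206 without stood later. In the last step the intervals of the classes overlapped, at 48.6% and 44.0%. The difference was also positive on each of the 20 chromosomes with more than 10 retained sites. Chromosomes share the same libraries and are not replicates. The difference had an interval above 0 on 16 of them. Within steps of the rank without pioglitazone it was smaller, 3.19 points (1.57 to 4.82), and within steps of the rank with pioglitazone larger, 18.8 (17.3 to 20.3).

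**Figure D4:**
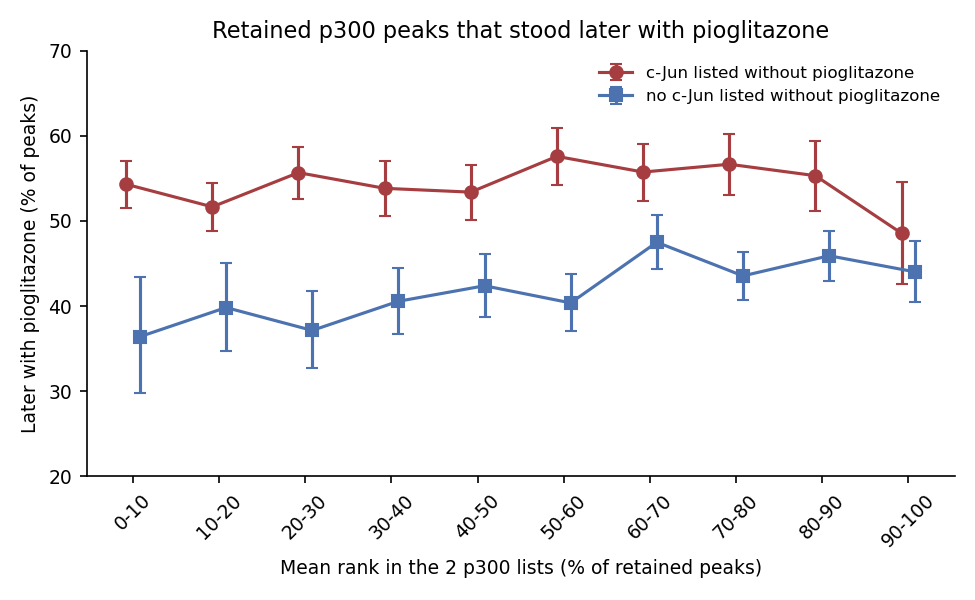
Share of retained p300 peaks that stood later in the ranking with pioglitazone (y axis, percent, starting at 20), by 10% steps of the mean rank in the 2 p300 lists (x axis), for sites with (red) and without (blue) a c-Jun peak listed without pioglitazone, with 95% exact intervals. The red points lie above the blue ones in every step, between 48.6% and 57.6% against 36.4% and 47.5%.

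The shares also differed with what became of c-Jun at the site. At the 5512 retained p300 sites with c-Jun in both treatments, 56.0% (54.7 to 57.3) stood later, with a median change of 0.91% of the ranking (0.67 to 1.19). At the 3251 sites where c-Jun was listed only without pioglitazone the share was 52.0% (50.3 to 53.7). Their median change was 0.61 (0.09 to 1.34), an interval that overlaps that of the sites with c-Jun in both. At the 1244 sites with c-Jun only with pioglitazone the share was 44.2% (41.4 to 47.0), with a median change of -1.77 (-2.93 to -0.79). At the 6070 sites with c-Jun in neither it was 42.7% (41.5 to 44.0), with a median change of -2.47 (-2.99 to -2.05). Within steps of mean rank, sites that kept c-Jun stood later more often than sites that lost it, by 4.66 points (2.42 to 6.90). These 2 classes started at unlike median positions of the list without pioglitazone, 15.6% and 29.0%. Their difference was not computed within steps of the rank in either single list. Sites that gained c-Jun and sites that never had it differed by 2.28 points (-0.77 to 5.33), an interval that includes 0. When sites were instead divided by c-Jun listed with pioglitazone, the difference was 8.27 points (6.61 to 9.93) within steps of mean rank. It was 0.098 (-1.53 to 1.72) within steps of the p300 rank without pioglitazone. For both c-Jun lists, then, the size of the difference depended on which p300 rank was held equal.

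Of 1385 retained sites that moved back by more than 25% of the ranking, 63.3% (60.7 to 65.9) overlapped c-Jun without pioglitazone and 44.0% (41.4 to 46.7) overlapped c-Jun with it. Of 1286 that moved forward as far, 37.8% (35.1 to 40.5) and 33.5% (30.9 to 36.2) did, and of all retained sites 54.5% and 42.0%. At a like mean rank, sites that moved far back start by construction from earlier ranks without pioglitazone than sites that moved far forward, and c-Jun was listed more often at early ranks. These shares are therefore partly set by the starting rank and are given as a description. Among the 3266 retained sites in the first 10% of either list, 81.9% overlapped c-Jun without and 70.2% with pioglitazone. For the 100 of them with the largest move back, in percent of the lists, the counts were 91 and 72, and for the 100 with the largest move forward 58 and 46, with the same limit.

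The sites named next were chosen by the change of position in percent of each list, a measure that depends on the list lengths, and not by the closed ranking. The p300 site that moved back furthest from the top was on chromosome 1 (175885248 to 175885494). It went from row 2366, 7.52% down the list without pioglitazone, to row 17748, 80.7% down the list with it. c-Jun at this site also moved back, from 1.79% to 11.3% of its lists. On chromosome 16 (38695107 to 38695353) p300 went from row 1884 to 15977, and c-Jun from row 2095 of 17044 to row 1985 of 13325, which is 12.3% and 14.9% of its lists. p300 went from row 3054 to 16278 on chromosome 9 (41316942 to 41317188), with c-Jun at 34.6% and 39.6% of its lists. It went from row 2740 to 15745 on chromosome 7 (79784519 to 79784765), with c-Jun at 12.1% and 14.7%. At the fifth site, on chromosome 2 (135351601 to 135351847), p300 went from row 2089 to 14128, whereas c-Jun moved forward, from 35.4% to 17.8% of its lists. At all 5 sites c-Jun was listed in both treatments. The centres of the paired p300 peaks lay 65, 164, 141, 13 and 59 bp apart at these sites, in that order. The median over all retained sites was 38 bp, and whether each pair marks the same summit was not tested.

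The sites that moved forward furthest, into the first 10% with pioglitazone, carried c-Jun in 2 of 5 cases. p300 went from row 13654 to row 2071 on chromosome 18 (55233414 to 55233660). It went from row 10714 to row 558 on chromosome 10 (126415807 to 126416053) and from row 10364 to row 1553 on chromosome 14 (77217312 to 77217558). None of these 3 overlapped c-Jun in either treatment. The move on chromosome 8 (112302376 to 112302622) was from row 9956 to 1909, with c-Jun at 15.6% and 8.79% of its lists. The one on chromosome 13 (118019576 to 118019822) was from row 8855 to 1434, with c-Jun at 63.8% and 68.3%. The site on chromosome 10 is the only one of the 5 that reached the first 1000 rows.

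p300 peaks with c-Jun listed without pioglitazone differed from the rest in 2 readouts that are not independent. They were listed again with pioglitazone more often, 74.1% against 37.2%. Within 10% steps of row order the difference was 15.8 points (14.6 to 16.9). Those that were listed again stood later in the ranking more often than retained p300 peaks without c-Jun, as given above. The ranking holds retained sites only, so a peak that left the list was not counted as later. This removed a larger share of the peaks without c-Jun, and its part in the order difference was not tested.

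The neighbourhood of a peak went with its retention in a way that depended on row order. A p300 peak was called clustered when another p300 peak of the same list had its centre within 12500 bp. This held for 17018 of 31466 peaks without pioglitazone, 54.1%, and for 10096 of 21994 with it, 45.9%. Clustered peaks stood higher in the list: 71.2% of the first 10% of rows were clustered and 35.0% of the last. Over the whole list clustered peaks were retained more often, 54.7% (54.0 to 55.5) against 46.8% (46.0 to 47.6) of solitary ones, a difference of 7.96 points (6.85 to 9.07). At equal list lengths this difference was 1.24 points (-0.03 to 2.51), an interval that includes 0.

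At like row position the direction was opposite. Within 10% steps of the list, clustered peaks were retained less often than solitary ones, by -3.83 points (-4.79 to -2.88). The gap was widest near, but not at, the top. Between 20% and 30% of the list 70.01% of 1994 clustered and 79.7% of 1152 solitary peaks were retained, and between 10% and 20% the shares were 84.9% and 93.0%. Between 80% and 90% it had the opposite sign, with 21.4% (19.2 to 23.7) of clustered and 17.7% (16.0 to 19.5) of solitary peaks retained. Over the first 50% of rows the difference within steps was -6.74 points (-8.04 to -5.44), and over the last 50% it was -1.10 (-2.48 to 0.28), an interval that includes 0. It was negative both among peaks with c-Jun, -3.59 (-5.00 to -2.18), and among those without, -2.70 (-3.94 to -1.45). By chromosome, again not replicates, it was negative on 18 of 20, with an interval below 0 on 10, and positive on chromosomes 17 and X. Counting a peak of the other list within 500 bp as shared gave -4.13. With clustering defined by 5 kb in place of 12500 bp it was -8.02 (-9.12 to -6.91).

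**Figure D5:**
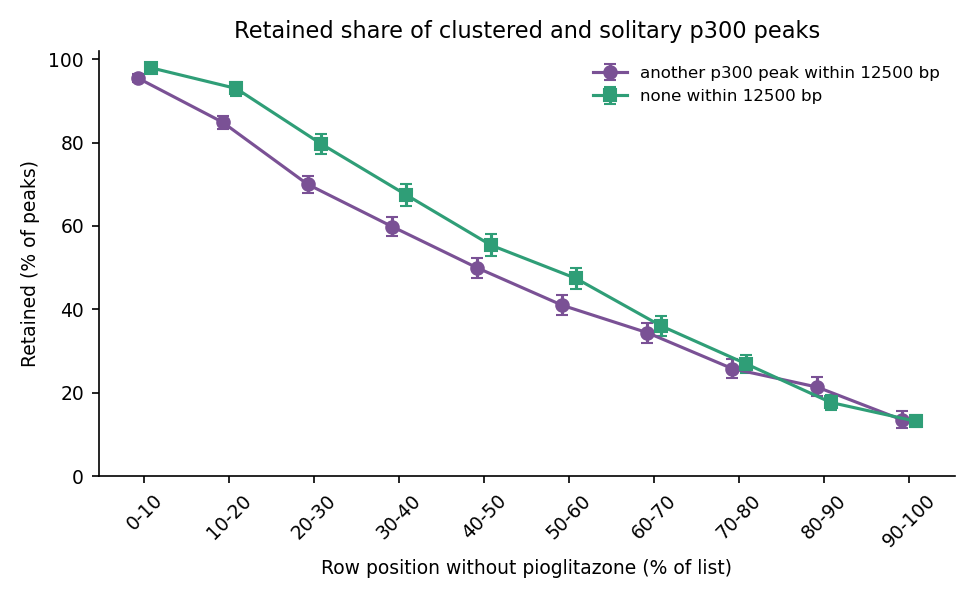
Share of p300 peaks without pioglitazone that were retained (y axis, percent), by 10% steps of row position (x axis), for peaks with (purple) and without (green) another p300 peak within 12500 bp, with 95% exact intervals. The green points are above the purple ones up to the step from 70% to 80%, by most between 20% and 30% of the list. From 80% to 90% the purple point is the higher one, 21.4% against 17.7%, and in the last step the classes meet at 13.5% and 13.2%.

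The same was seen from the other list. Gained peaks made up 24.4% of clustered and 29.0% of solitary p300 peaks with pioglitazone, and within 10% steps of that list the clustered ones were gained more often, by 2.51 points (1.41 to 3.61). The single steps of that list did not all go this way: in the last step 53.4% of clustered and 58.3% of solitary peaks were gained. Averaged over the steps, in both lists a clustered peak was less often matched in the other library than a solitary peak of like row position.

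Runs of neighbouring p300 peaks were also counted by how many of their peaks were retained. When p300 peaks without pioglitazone were joined into runs across gaps of up to 12500 bp, 2352 runs held 3 or more peaks. In 349 of them, 14.8%, every peak was retained, in 1813 some were, and in 190, 8.08%, none was. Of the 4161 runs of 2 peaks, 983 (23.6%) kept none. Of the 388 runs of 5 or more peaks, 5 kept none and 17 kept all. Of the 14448 solitary peaks 53.2% were lost. With pioglitazone 1206 runs held 3 or more peaks, of which 18 consisted of gained peaks only. A run of many peaks has more chances to keep 1, so these counts do not compare runs of different size. Over the whole list without pioglitazone 48.9% of single peaks were lost. Whether whole runs were lost more or less often than that share would give was not tested. The counts are therefore not read as a property of clusters.

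Of the 5 runs of 5 or more peaks that kept none, those with 6 peaks lay at 15937656 to 15971628 of chromosome 13 and 4037804 to 4067394 of chromosome 19. Those with 5 peaks lay at 107456848 to 107490099 of chromosome 9, 63244901 to 63281443 of chromosome 14 and 59422058 to 59438465 of chromosome 2. The earliest peak of each run stood at row 10938, 15619, 12450, 14545 and 15330 of 31466, in that order. Around the run on chromosome 13 no p300 peak with pioglitazone lay within 12500 bp, and around the others there were 1, 2, 1 and 2. c-Jun without pioglitazone was listed on 1 or 2 peaks of each. Over the whole list, 11828 of the 31466 p300 peaks without pioglitazone overlapped c-Jun without it. The largest runs made of gained peaks only held 4 peaks, on chromosome 12 (81309272 to 81331349) and chromosome 5 (114221757 to 114248695). Of the 16 runs of 3, the 3 whose earliest peak stood highest in the list lay on chromosome 7 (87969312 to 87981231) and chromosome 10 (74958781 to 74980078 and 94977705 to 94987977). The 5 named runs had between 2 and 4 p300 peaks without pioglitazone within 12500 bp, none of them overlapping, and 2 of the runs had no c-Jun peak with pioglitazone on them. Of all 21994 p300 peaks with pioglitazone, 7401 overlapped c-Jun with it.

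Every one of the 20 chromosomes with more than 10 retained sites had fewer p300 peaks with pioglitazone. The whole list was also shorter, 21994 against 31466 peaks, at unknown depth. A fall on most chromosomes follows from these totals and is not separate evidence. The number with pioglitazone per 100 without went from 56.8 on X and 59.9 on chromosome 12 to 75.5 on chromosome 6 and 77.8 on chromosome 19. Retained sites on X moved back in the ranking by a median of 2.67% (0.72 to 4.36), and those on chromosome 19 moved forward, with a median of -1.32 (-2.77 to -0.15). Within steps of mean rank, X sites stood later more often than the rest by 9.14 points (3.71 to 14.6), and chromosome 19 sites less often by -5.52 (-9.81 to -1.23). These chromosomes were picked as the extremes of the 20 by median change, and the intervals are not adjusted for that choice. Intervals of this difference also excluded 0 on chromosomes 4, 13 and 14, where it was positive, and on chromosome 10, where it was negative. X peaks stood late in the list without pioglitazone, at a median position of 71.7%, and those on chromosome 19 early, at 39.1%. c-Jun without pioglitazone was listed on 48.6% of retained X sites and 55.2% of those on chromosome 19. The part of c-Jun in the differences between chromosomes was not tested.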

How the data were processed

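The 4 deposited peak lists, 1 per ChIP library, were used, and the p300 pair was compared. Per the submitters' processing notes, Bowtie2 2.3.4.3, SAMtools 1.9 and HOMER served for build mm9. For HOMER's version, the tools' roles, the caller's settings and the part of the pooled input, details were not given in the sources used here. The deposited score is 1 in every row, per the file contents, and other columns hold positions in bp. Depth is unknown. Without an mm9 genome or annotation, and with no conversion of coordinates, the planned gene, promoter and motif comparisons were not run, no sequence is printed, and sites are named by position, counted from 1.

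Overlaps came from centre distances in Python 3.11.15 (numpy 2.4.6, pandas 2.3.3, scipy 1.17.1) and matched bedtools 2.31.1 in 24 of 24 comparisons. Functions were tested on simulated data. Shares carry exact 95% intervals, differences intervals combined from these, and differences within steps Mantel-Haenszel intervals. Peaks are not replicates.

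Sites named are the first 10 retained, the 5 retained sites of the first 10% of either list that moved furthest each way, the first 5 lost and gained peaks over 5 kb from the other list, and the 5 largest runs wholly lost or gained, ties going to the run with the earliest row. Members and rules were chosen with earlier results of these data known. The comparisons of order with c-Jun, the lost and gained pairs, the chromosome values and the alternatives for clustering within steps were added after the data were seen.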

Additional observations from a re-analysis of the deposited data

Results flagged for a closer look

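At 1 named site the 2 antibodies moved in opposite directions. On chromosome 2 (135351601 to 135351847) the p300 peak stood 57.6% of the list later with pioglitazone, and the c-Jun peak changed by -17.6% of its list, which is earlier. With 1 library for each antibody and treatment this difference was not tested.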

How the results depend on the processing

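The retained share of 51.1% was 45.6% when 50% of both peaks had to overlap, 53.6% with centres within 500 bp, 64.6% at equal list lengths and 56.5% with both lists cut to their upper 50%. The gained share of 26.9% was 34.7%, 23.1%, 35.4% and 19.2%. The median position change of 5.53 turned to -0.67 at equal lengths and was 6.24 with both lists cut. The clustered minus solitary difference of 7.96 points was 1.24 at equal lengths and 3.97 with a 5 kb limit. Within 10% steps it was -3.83, and -7.25 at equal lengths, -2.69 with both lists cut and -8.02 with 5 kb. The c-Jun difference in order of 12.49 points was 3.19 in steps of rank without and 18.8 in steps of rank with pioglitazone, and 8.27 with the c-Jun list with pioglitazone. In the other alternatives run these values stayed within their intervals. The cause of each change was not tested, apart from the list lengths that the cuts set. Promoter comparisons were not run. No paired analysis was possible because each group is 1 library. Unknown depth limits every count of peaks.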

Other observations

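At the 5512 p300 sites listed in both treatments that had c-Jun in both, the change in p300 order went only weakly with the change in c-Jun order. For this comparison each factor was ranked among these 5512 sites alone, so the counts differ from those in the ranking of all retained sites. Both factors moved the same way at 2832 sites, 51.4% (50.05 to 52.7): later at 1398 and earlier at 1434. p300 stood later and c-Jun earlier at 1337, and the reverse held at 1321. The remaining 22 sites kept the same rank for 1 factor. Spearman's rho between the changes was 0.055 across sites, whereas the orders of p300 and c-Jun themselves had a rho of 0.53 without and 0.46 with pioglitazone. The sites share 4 libraries and are not replicates.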
